A study of Mus musculus with 6 samples.

Results

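The 7 genes described here are the 3 iodothyronine deiodinases Dio1, Dio2 and Dio3, the nuclear thyroid hormone receptors Thra and Thrb, the hormone transporter Slc16a10 and the thyrotropin receptor Tshr. They were taken by gene symbol from the platform annotation. Each has 1 probe set, so they make up 7 of 22206 probe sets and 7 of the 19505 genes named on the array. The set was selected on the K313 against WT difference of Dio2, which is large, and the other 6 genes were added for their place in the same pathway. The difference between the groups is therefore given for these genes as a description, with no test.

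The cells were mouse HoxB8 neutrophil progenitors, which the factor Hoxb8 keeps from maturing, and all 6 samples had spent 1 day in a differentiation medium that contained SCF supernatant. One group of 3 samples expressed the wild-type form of C/EBPα (WT), a DNA-binding factor needed to form granulocytes, while the other 3 expressed K313-C/EBPα (K313), a form linked to acute myeloid leukaemia. Total RNA was hybridised to Affymetrix Mouse Clariom S arrays, 1 array per sample, to ask how the K313 form alters C/EBPα activity. The labels do not say how the forms were introduced, whether a group is 1 clone, or whether replicates came from separate cultures. The spread between replicates may thus be technical.

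Thyroid hormone acts inside cells. The thyroid gland releases mostly thyroxine, a prohormone, which enters cells through membrane transporters. The type 2 deiodinase, encoded by Dio2, removes an iodine from the outer ring and makes the active hormone triiodothyronine, whereas the type 3 enzyme, encoded by Dio3, removes one from the inner ring and inactivates the hormone. The type 1 enzyme, encoded by Dio1, can do either. All the deiodinases are selenoproteins, proteins that carry the amino acid selenocysteine at a codon otherwise read as a stop. Triiodothyronine binds the receptors encoded by Thra and Thrb, which sit on DNA with retinoid X receptors. Tshr, the receptor that thyrotropin activates on thyroid cells, signals through cyclic AMP, and cyclic AMP is known to induce Dio2 in several tissues.

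The stretch in front of the Dio2 transcript is shown because the study compares forms of a DNA-binding factor and because Dio2 differs between them, with those of Dio1 and Dio3 for comparison. Promoters were found in the RefSeq table (build GRCm38.p6) for 5 of the 7 genes, with 6 start sites, 2 of them for Thrb. Each line below gives the 250 bases before the annotated start, 5′ to 3′ on the strand of the gene, and ends at the base before the start. The stretches are chr12:90739039-90739288 (minus strand) for Dio2, chr4:107307169-107307418 (minus strand) for Dio1 and chr12:110278980-110279229 (plus strand) for Dio3. Capitals mark matches, on either strand, to the cyclic AMP response element TGACGTCA, the C/EBP-type motif TTGCNNAA, the TATA box TATAAA and the CCAAT box CCAAT.
Dio2: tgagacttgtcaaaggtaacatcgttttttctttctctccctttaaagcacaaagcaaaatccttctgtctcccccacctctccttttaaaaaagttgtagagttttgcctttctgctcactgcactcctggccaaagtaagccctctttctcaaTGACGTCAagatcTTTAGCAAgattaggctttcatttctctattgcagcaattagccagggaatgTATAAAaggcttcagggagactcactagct
Dio1: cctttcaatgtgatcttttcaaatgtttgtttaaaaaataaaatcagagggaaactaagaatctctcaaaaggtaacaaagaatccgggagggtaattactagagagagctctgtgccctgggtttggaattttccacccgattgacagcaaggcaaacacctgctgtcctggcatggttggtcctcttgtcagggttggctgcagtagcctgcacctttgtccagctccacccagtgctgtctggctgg
Dio3: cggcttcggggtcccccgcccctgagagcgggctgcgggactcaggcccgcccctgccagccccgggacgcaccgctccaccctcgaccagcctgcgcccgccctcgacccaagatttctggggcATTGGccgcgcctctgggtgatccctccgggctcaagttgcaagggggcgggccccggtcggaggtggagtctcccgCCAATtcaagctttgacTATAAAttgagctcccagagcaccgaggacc

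The Dio2 stretch held 1 cyclic AMP response element at positions -95 to -88 from the start, a motif found in 1.55% of the 32851 promoter stretches of the same length. After 5 further bases it held TTTAGCAA, at -82 to -75, which is the C/EBP-type motif read on the opposite strand and is present in 9.56% of the stretches. The matches do not overlap. A TATA box began at -30 (12.4% of the stretches). The full C/EBP palindrome TTGCGCAA, a case of the C/EBP-type motif and present in 0.164% of the stretches, was not among its letters. The Dio3 stretch held a TATA box beginning at -31 and 2 CCAAT boxes (33.8% of the stretches), and the Dio1 stretch held no match to any motif searched. Of the other members, Slc16a10 held 2 CCAAT boxes, the first Thrb start held 1 nuclear receptor motif, AGGTCA (14% of the stretches), and the second Thrb start held 1 TATA box at -167. These matches describe letters and were not measured as binding sites.

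Among the deiodinases, Dio2 was the one with a large difference between the groups. Its log2 expression value, the scale of all levels given here, was 4.78, 5.62 and 7.17 in WT replicates 1, 2 and 3 and 12.60, 11.98 and 12.08 in K313 replicates 1, 2 and 3. The groups did not overlap: the lowest K313 array stood 4.81 above the highest WT array. Means were 5.86 ± 1.21 (SD, n = 3) in WT and 12.22 ± 0.33 (SD, n = 3) in K313. The difference, K313 minus WT, was 6.36 ± 0.46 (SE of the fit), an 82.3-fold higher level. It ranked 9 among the 19572 probe sets with a gene symbol when these were ordered by their rise. Fewer cells with the transcript and less transcript per cell cannot be told apart in such bulk RNA.

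The WT arrays disagreed on Dio2. Their SD of 1.21 was among the 28 largest of the 22206 probe sets, where the median SD in WT was 0.20. WT replicate 3 read 1.97 above the mean of the other two WT arrays, while the K313 arrays spanned 0.62. Without WT replicate 3 the difference was 7.02, or 130-fold, and without WT replicate 1 it was 5.83, or 56.7-fold. Every fit that left out an array thus kept Dio2 above 5 on the log2 scale, and the size of its rise depended on which WT array was left out.

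WT replicate 3 stood apart in other genes that read high in K313 too, including genes of the Y chromosome. Eif2s3y, a Y-linked translation factor gene, read 3.11, 2.93 and 7.03 in WT and 12.37, 12.09 and 12.24 in K313, so the groups differed in Y-linked transcripts as well as in the C/EBPα form. On the unlogged scale, Dio2 in WT replicate 3 exceeded the mean of WT replicates 1 and 2 by 2.19% of the distance from that mean to the K313 mean. The same share was 2.54% for Eif2s3y and 2.37% for Uty, also Y-linked. Among the 17 named probe sets that rose by at least 5, Dio2 included, WT replicate 3 was the highest WT array in 17, and the share ran from 1.38% to 4.39% with a median of 2.54%. Whether the sample of WT replicate 3 held some RNA of K313 cells was not tested. The WT mean and SD of Dio2 and the 82.3-fold difference include this array. Hoxb8 also differed, with 12.45, 13.49 and 12.99 in WT against 8.06, 8.53 and 8.42 in K313, whereas Cebpa overlapped between the groups (14.35 to 14.85 in WT and 13.85 to 14.45 in K313). Whether these probe sets see the introduced copies is not stated in the labels. Lower Hoxb8, Y-linked transcripts and the C/EBPα form separate the same arrays, so their relations to Dio2 cannot be told apart.

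**Figure D1:**
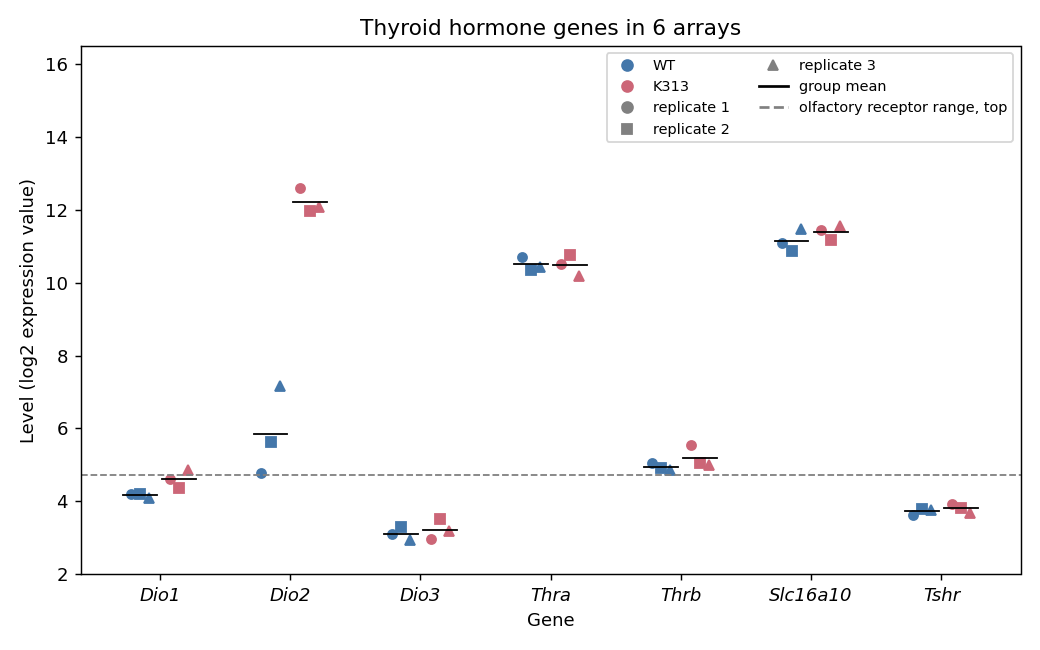
Log2 expression value (vertical axis) of the 7 genes in each of the 6 arrays; colours mark the group, symbols the replicate, black bars the group mean, and the dashed line the 95th percentile of olfactory and vomeronasal receptor genes in K313 (4.73). Dio2 lies between 4.78 and 7.17 in WT and between 11.98 and 12.60 in K313, while Thra, Thrb, Slc16a10, Dio3 and Tshr overlap between the groups.

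To judge low readings, the 1414 probe sets of olfactory and vomeronasal receptor genes, which belong to sensory neurons, were used as a reference. Their group means had a median of 3.57 in WT and 3.58 in K313 and a 95th percentile of 4.68 and 4.73. Means at or below that percentile are called within the olfactory receptor range and cannot be told from background. Of the 7 genes, Dio1, Dio3 and Tshr were within that range in both groups. The reference genes are a description of background, not a detection call.

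Dio1 read 4.19, 4.21 and 4.09 in WT and 4.61, 4.37 and 4.86 in K313. The groups did not overlap, by a gap of 0.16, yet both means (4.16 and 4.61) were within the olfactory receptor range, and the difference was 0.45 ± 0.17 (SE, n = 3 per group). Dio3 read 3.11, 3.29 and 2.94 in WT and 2.97, 3.52 and 3.19 in K313, with overlapping groups and a difference of 0.11 ± 0.18 (SE). By group means, the activating enzyme was therefore the single deiodinase read above the olfactory receptor range, and it was above it in both groups. Its WT mean of 5.86 includes the 7.17 of WT replicate 3. WT replicate 1 read 4.78, close to the 95th percentile of 4.68 in WT. Of the 7 genes, Dio2 and Dio1 did not overlap between the groups, both higher in K313, where 11.0% of all probe sets were higher without overlap and 21.9% did not overlap in either direction. Since the set was built around Dio2 in this contrast, nothing is read from this count.

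The receptor Thra was clearly above the reference in both groups and did not separate them. It read 10.72, 10.36 and 10.44 in WT and 10.51, 10.77 and 10.18 in K313. The difference was -0.02 ± 0.19 (SE), with a 95% interval from -0.44 to 0.40. The 3′ end of Thra overlaps that of Nr1d1, a clock repressor gene on the opposite strand, and the sources used here do not say where the probes lie. Nr1d1 read 5.20 to 5.27 in WT and 5.38 to 5.76 in K313 (limma adjusted p = 0.393).

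Thrb, the second receptor gene, read 5.04, 4.92 and 4.85 in WT and 5.56, 5.04 and 5.01 in K313. These means, 4.94 and 5.20, were just above the olfactory receptor range. The groups overlapped, with WT replicate 1 level with the lower K313 arrays, and the difference was 0.27 ± 0.18 (SE, 95% interval -0.14 to 0.67). K313 replicate 1 alone stood above the other 5 arrays.

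Slc16a10, which encodes a carrier of aromatic amino acids and thyroid hormones, read 11.10, 10.86 and 11.47 in WT and 11.46, 11.18 and 11.55 in K313. It was well above the reference in every array. WT replicate 3 read as high as the K313 arrays, and the difference was 0.25 ± 0.19 (SE, 95% interval -0.17 to 0.68). Tshr read 3.63, 3.80 and 3.77 in WT and 3.93, 3.83 and 3.69 in K313, a difference of 0.08 ± 0.15 (SE) within the olfactory receptor range. The median difference of the 7 genes was 0.25, which is the value of Slc16a10, against 0.02 for all probe sets. Since the set was built around Dio2 in this contrast, nothing is read from that median.

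Slc16a10 is one of several carriers that can bring the hormone into a cell. Genes that were no part of the selection were tested with limma, and those with an adjusted p under 0.05 over all probe sets are said to have risen or fallen. Of all probe sets, 7.75% passed, 3.77% higher and 3.97% lower in K313. At an unadjusted p under 0.05, 8.79% were higher and 9.04% lower. Of 19 other transporters and binding proteins measured, 1 rose and 0 fell (at an unadjusted p under 0.05, also 1 and 0). The one that rose was Slco3a1, an organic anion transporter that can carry thyroxine. It read 9.56, 9.54 and 10.72 in WT and 12.99, 12.83 and 13.08 in K313, with the groups apart. The rise was 3.03 ± 0.28 (SE, n = 3 per group; limma adjusted p = 3.59e-05), or 8.15-fold. WT replicate 3 was again the highest WT array, with an excess of 12.9% on the unlogged scale, above the 1.38% to 4.39% of the 17 largest rises, and without it the rise was 3.42. The amino acid carriers that also move thyroid hormone did not pass: Slc7a5 differed by 0.24 ± 0.18 (SE; limma adjusted p = 0.571) and Slc7a8 by -0.03 ± 0.20 (0.964). The binding proteins Ttr and Alb were within the olfactory receptor range in both groups, as were 12 of the 19 genes of this list.

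The genes that make the hormone in the thyroid gland were mostly near background. Of 16 measured genes of synthesis and pituitary control, 0 passed the limma threshold, against 7.75% of all probe sets. At an unadjusted p under 0.05, 0 were higher and 2 lower (8.79% and 9.04% of all probe sets). In both groups 11 of the 16 were within the olfactory receptor range. Of the 5 thyroid follicular cell markers measured, 4 were within that range, and the other, thyroglobulin (Tg), read 4.85 to 5.03 in WT and 4.77 to 5.16 in K313. The sum of these 5 markers on the unlogged scale was 87.8 to 92.1 in WT and 87.6 to 97.7 in K313.

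The receptors' partners were measured at a range of levels and showed no calls. The list of 18 holds retinoid X receptors, coregulators and other nuclear receptors such as Nr1d1. Of these, 0 passed with limma, against 7.75% of all probe sets. At an unadjusted p under 0.05 there was 1 higher and 1 lower (8.79% and 9.04% of all probe sets). Rxrb, a retinoid X receptor that pairs with the thyroid hormone receptors, read 9.46 to 9.88 in WT and 9.59 to 10.19 in K313 (difference 0.18 ± 0.19, SE; adjusted p = 0.728). Ncoa3, a coactivator, fell in the fit without WT replicate 3 (-0.89, limma adjusted p = 0.0440), and Ncoa1, another, rose in the fit without K313 replicate 2 (1.07, adjusted p = 0.0207). Neither passed with all 6 arrays.

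Genes known to respond to thyroid hormone in other tissues were read as a group. The list does not separate genes that the hormone raises from genes that it lowers. Its counts and median are therefore no measure of a response to the hormone. Of 23 measured, 1 rose and 0 fell with limma (4.35% called, against 7.75% of all probe sets). At an unadjusted p under 0.05 the counts were also 1 and 0. Without overlap 4 were higher and 0 lower (11.0% and 10.9% of all probe sets). The median difference was 0.09, against 0.02 for all probe sets. Scd1, a fatty acid desaturase of the liver and fat response, read 5.88, 5.59 and 4.88 in WT and 6.47, 6.15 and 6.72 in K313, a rise of 1.0 ± 0.25 (SE; limma adjusted p = 0.0335). The call was lost in 6 of 14 alternatives, among them the fit with a replicate block (adjusted p = 0.0519). The largest adjusted p, 0.306, came with the ordinary variance of each probe set in place of the limma prior. Leaving out WT replicate 2 gave 0.0572 and leaving out WT replicate 3 gave 0.0962. The values were 0.0961 when K313 replicate 1 was dropped and 0.147 when K313 replicate 3 was. Klf9, a transcription factor gene that triiodothyronine induces in many cell types, read 8.28 to 8.77 in WT and 8.17 to 8.64 in K313, a difference of -0.02 ± 0.19 (adjusted p = 0.973). Hr and Thrsp, further well known responders, were within the olfactory receptor range in both groups, as were 12 of the 23 genes of this list. Genes in that range have no level that can be told from background.

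The type 2 deiodinase is removed through ubiquitin, and 8 genes of that route were measured. With limma 0 of them passed (0 in either direction at an unadjusted p under 0.05), against 7.75% of all probe sets. With 8 genes, nothing is read from this count. They include Wsb1, the substrate adaptor of the ligase that marks the enzyme, and the deubiquitinases Usp20 and Usp33 that rescue it. All 8 were above the olfactory receptor range in at least 1 group, and their differences lay between -0.38 and 0.13.

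Deiodinases need the machinery that inserts selenocysteine. Of 11 genes for it, all above the olfactory receptor range, 0 passed with limma, while 5 were lower and 0 higher at an unadjusted p under 0.05, where 9.04% of all probe sets were lower. In 5 the K313 arrays were below all WT arrays and in 1, the selenophosphate synthetase relative Sephs1, they were above (10.9% of all probe sets were lower and 11.0% higher without overlap). The member with the smallest p was Secisbp2, whose product binds the element in selenoprotein messages that recruits the machinery. It read 10.89, 10.62 and 10.98 in WT and 10.32, 10.33 and 10.21 in K313, a difference of -0.54 ± 0.16 (SE; limma adjusted p = 0.0684). It passed with a common array median (0.0445), with array weights (0.0493) and without WT replicate 2 (0.0464). Eefsec, the elongation factor for selenocysteine, differed by -0.45 ± 0.16 (adjusted p = 0.144).

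Among 20 other selenoproteins, 2 rose, 1 fell and 17 did not pass (15% called, against 7.75% of all probe sets). At an unadjusted p under 0.05, 5 were higher and 1 lower (8.79% and 9.04% of all probe sets). Without overlap 6 were higher and 2 lower (11.0% and 10.9%). Gpx3, the secreted glutathione peroxidase, rose by 1.27 ± 0.19 (SE; limma adjusted p = 0.00143) from 4.73, 4.85 and 4.50 in WT to 6.20, 5.60 and 6.08 in K313, starting at the edge of the olfactory receptor range. Selenop, the plasma carrier of selenium, read 12.54, 12.81 and 12.57 in WT and 11.87, 11.70 and 11.79 in K313, and fell by 0.85 ± 0.16 on the log2 scale (adjusted p = 0.00506). Msrb1, a methionine sulfoxide reductase, rose by 0.72 ± 0.16 (adjusted p = 0.0170), and missed the threshold without WT replicate 3 (0.0733) and without K313 replicate 2 (0.0820). With the ordinary variance of each probe set, in place of the limma prior, Msrb1 missed it too (adjusted p = 0.0898). The 3 called genes went in both directions, while more of the list was higher than lower at an unadjusted p under 0.05.

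Cyclic AMP signalling, the route known to induce Dio2, had 2 genes higher and 1 lower among 21 measured (14.3% called, against 7.75% of all probe sets). At an unadjusted p under 0.05, 2 were higher and 4 lower (8.79% and 9.04% of all probe sets), and without overlap 2 were higher and 5 lower (11.0% and 10.9%). Prkar2b, a regulatory subunit of the cyclic AMP-dependent kinase, read 13.13, 13.17 and 13.56 in WT and 14.27, 14.19 and 14.17 in K313, a rise of 0.92 ± 0.17 (SE; limma adjusted p = 0.00481). Adcy3, an adenylyl cyclase, rose by 0.92 ± 0.15 (adjusted p = 0.00259) from 3.98 ± 0.12 (SD, n = 3), within the olfactory receptor range, to 4.90 ± 0.07, just above it. Pde3b, a phosphodiesterase that breaks cyclic AMP down, read 8.06, 9.23 and 8.88 in WT and 7.72, 7.34 and 7.16 in K313, and fell by 1.32 ± 0.27 on the log2 scale (adjusted p = 0.0116). It missed the threshold without K313 replicate 2 (0.0505) and without K313 replicate 3 (0.0631). With the ordinary variance of each probe set, in place of the limma prior, Pde3b had an adjusted p of 0.244. Creb1, whose product binds the cyclic AMP response element, was not among the genes that passed.

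Over these lists together, 141 genes were measured besides the 7; 6 rose and 2 fell, or 5.67%, against 7.75% of all probe sets. Their median difference was -0.01. Without WT replicate 3, 4 rose and 4 fell: Scd1 and Msrb1 dropped out, and Crtc3, a coactivator of Creb1 (-1.11, limma adjusted p = 0.0227), and Ncoa3 came in among the falls.

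**Figure D2:**
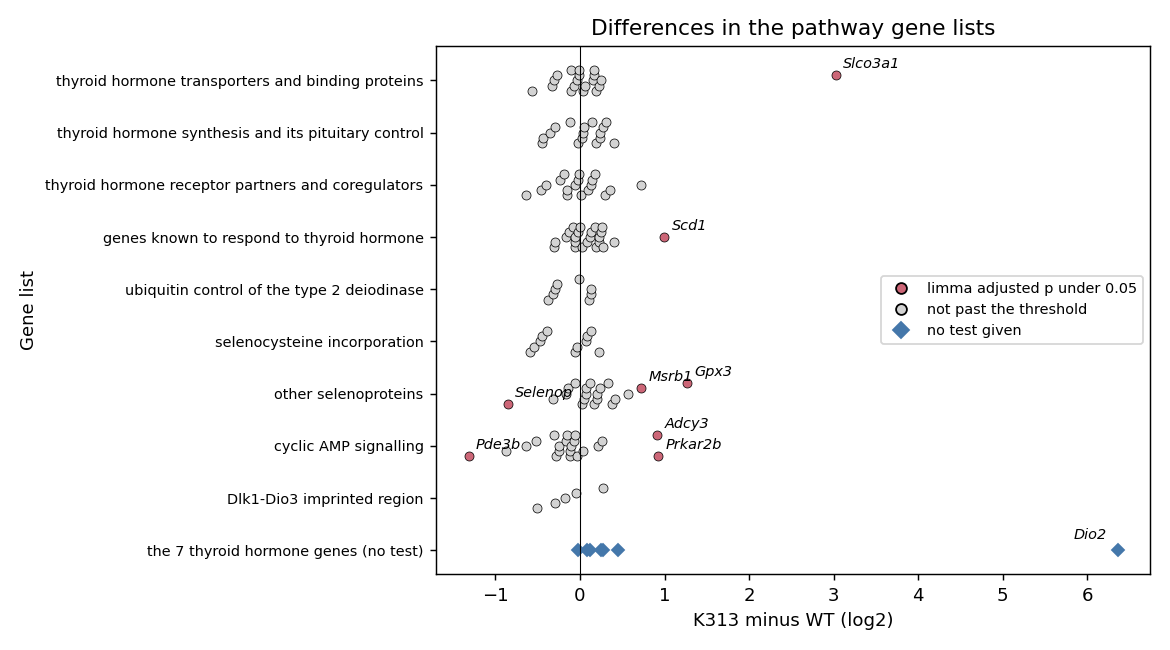
Difference K313 minus WT (horizontal axis, log2) of each measured gene, by list (vertical axis); red points passed a limma adjusted p of 0.05, grey points did not, and blue diamonds are the 7 thyroid hormone genes, for which no test is given. Slco3a1 (3.03) and Dio2 (6.36) lie apart from the other genes shown, and the remaining 6 thyroid hormone genes lie between -0.02 and 0.45.

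Dio2 lies on chromosome 12, and Tshr is its second measured neighbour on one side. Among the 5 measured genes on each side, the 9 other than Tshr overlapped between the groups. With limma 0 of the 9 passed (0 at an unadjusted p under 0.05). Of all probe sets, 21.9% did not overlap and 7.75% passed, and 8.79% were higher and 9.04% lower at an unadjusted p under 0.05. With so few genes, nothing is read from these counts. Nrxn3, a neurexin gene next to Dio2, was within the olfactory receptor range (difference 0.08 ± 0.16, SE), and Cep128, a centriole gene on its other side, differed by -0.10 ± 0.23 from a WT mean of 10.50 ± 0.38 (SD, n = 3). The largest differences of the 9 were 0.45 (Gm5039) and -0.45 (Adck1). Dio3 lies on the same chromosome, in the imprinted Dlk1-Dio3 region. Of 5 measured genes in or next to that region, 0 passed with limma (0 at an unadjusted p under 0.05). These are likewise too few to set against the shares of all probe sets. Dlk1 was within the olfactory receptor range in both groups.

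**Figure D3:**
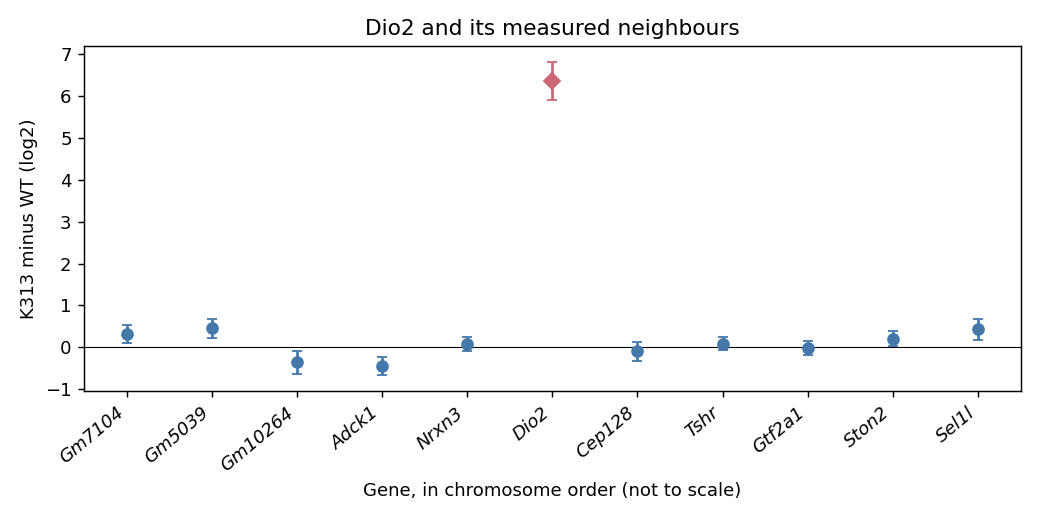
Difference K313 minus WT (vertical axis, log2; bars are ± 1 SE of the fit, n = 3 per group) of Dio2 and the 5 measured genes on each side in chromosome order. Dio2 is at 6.36, and the 10 neighbours lie between -0.45 and 0.45.

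The genes whose values followed Dio2 most closely over the 6 arrays were found by centring each gene on its own mean and taking the root mean square difference from Dio2. The measure favours genes with a rise of like size, so it describes the pattern and tests nothing. The nearest was Psma8, a proteasome subunit of germ cells, at 0.16 on the log2 scale. It read 2.48, 3.35 and 4.90 in WT and 9.89, 9.50 and 9.56 in K313. Next were Socs2, an inhibitor of cytokine signalling (0.32), Gca, a calcium-binding protein of neutrophils (0.33), B4galt6, a glycosphingolipid galactosyltransferase (0.43), Mmp8, the neutrophil collagenase (0.50), Bace1, an aspartyl protease (0.52), the Y-linked Uty (0.61) and the acyltransferase Glyat (0.62). In all 8, as in Dio2, WT replicate 3 was the highest WT array. The measure favours this likeness too, so it adds nothing about WT replicate 3.

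**Figure D4:**
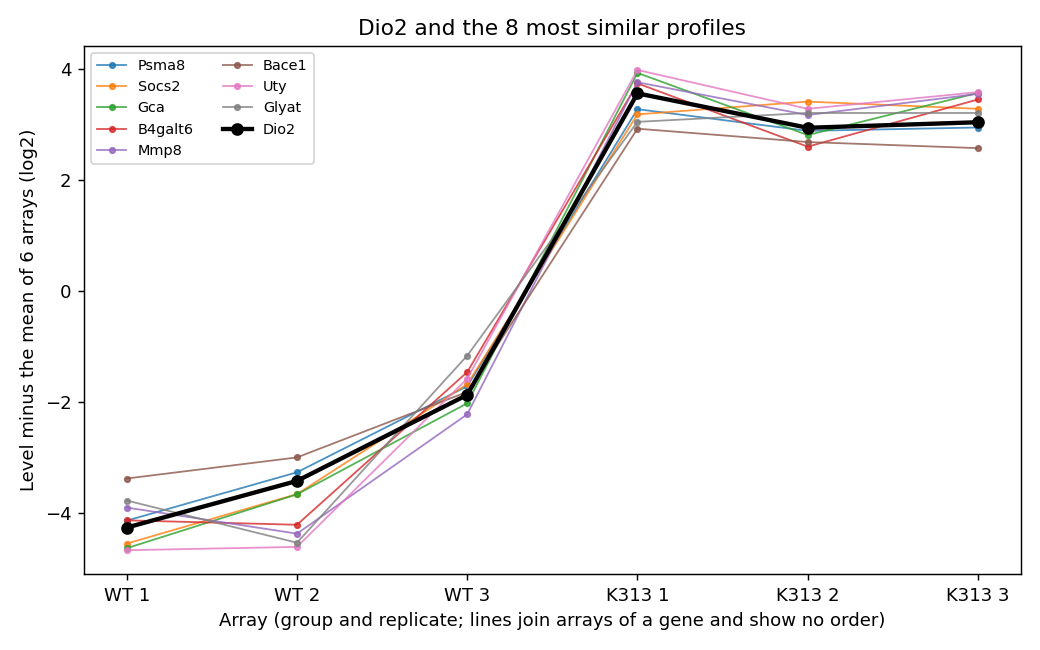
Level minus the mean of 6 arrays (vertical axis, log2) of Dio2 (black) and the 8 named genes with the most similar profiles, by array (horizontal axis). All 9 genes are lowest in WT replicates 1 and 2, intermediate in WT replicate 3 and highest in the 3 K313 arrays.

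Markers of several cell types were read, and a level above the olfactory receptor range does not single out a cell type. All 10 neutrophil progenitor markers were above that range in both groups. Of these, 4 rose and 1 fell in K313 (summed unlogged level 486499 to 531461 in WT and 644638 to 666859 in K313). The largest part of this sum is Mpo, which did not pass (difference 0.003, limma adjusted p = 0.994). Of the 8 basophil and mast cell markers, 7 were above the range in at least 1 group. Cpa3, among them, had a WT mean of 17.24, against 18.41 for Mpo, a neutrophil progenitor marker. Markers of other cells also differed between the groups. For comparison with the marker counts of this paragraph, 3.77% of all probe sets rose and 3.97% fell. Of 8 basophil and mast cell markers, 5 fell and 0 rose (311340 to 341636 in WT, 187760 to 222487 in K313). The largest part of that sum is Cpa3, which did not pass (limma adjusted p = 0.151), and Fcer1a was within the olfactory receptor range. Of 10 monocyte and macrophage markers, 3 rose and 1 fell (5760 to 7582 in WT, 24231 to 33153 in K313), with C1qa, C1qb, Mertk and Mrc1 within that range. F13a1 had the highest K313 mean of this list (14.05) and is the largest part of its K313 sum, while Adgre1 fell and Csf1r did not pass. Erythroid and megakaryocyte markers fell in 2 of 5 (891 to 1046 in WT, 285 to 364 in K313), with Klf1 within that range, and lymphocyte markers in 3 of 7 (8161 to 10374 and 5380 to 7882), with Cd3e and Ms4a1 within it. Most of the lymphocyte sum is Nkg7, which did not pass, and without it the sum was 700 to 1110 in WT and 128 to 159 in K313. The part of these cell types in the Dio2 difference was not tested.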

How the data were processed

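The authors deposited log2 expression values per probe set for 6 arrays, made per the submitters' processing notes with RMA, which corrects background, normalizes across arrays and summarizes probes, and the Transcriptome Analysis Console. Versions and the build of the array design are not given in the sources used here. RMA compresses changes near background and hides a change in total RNA per cell. Array medians were 5.01 to 5.13. Arrays have no read depth, and 3 per group limits the precision.

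All 22206 probe sets entered 1 linear model of limma 3.58.1 (R 4.3.3) with no term besides the group, followed by eBayes at its default prior; tests were two-sided, with Benjamini-Hochberg adjustment over all probe sets and a threshold of 0.05. Genes were named by the platform annotation (19572 probe sets with 1 symbol, 0 with several, 2634 with none). RefSeq tables of GRCm38.p6 gave promoters and gene order.

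The 7 genes and all gene lists were chosen with earlier results of these data known. Named genes are the 7, up to 4 called genes per list with the smallest p, the 5 measured neighbours on each side of Dio2 and the 8 most similar profiles. Others named as background or to illustrate a list (such as Slc7a5, Klf9, Rxrb, Secisbp2 and Nr1d1) were chosen after their values were seen. The reading of WT replicate 3 on the unlogged scale was added after seeing the data. Listed genes with no probe set of that symbol were not analysed here.

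Same-numbered arrays of the groups were compared by the correlation of their deviations from the group means.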

Additional observations from a re-analysis of the deposited data

How the results depend on the processing

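Over the 14 alternatives the Dio2 difference ran from 5.83 to 7.02 on the log2 scale, both ends from fits that left out a WT array. Its direction is no test, because Dio2 was selected on this contrast. With a gap of 4.81 between the groups, leaving out 1 array could not reverse it. Alternatives that change only the variance, the replicate block or the probe sets kept cannot alter this difference at all. Thra and Dio3, near 0, changed sign in some fits (-0.16 to 0.13 and -0.03 to 0.24), and Dio3 and Tshr were absent where the lowest 30% of probe sets were left out. Ordinary variance per probe set gave 247 higher and 249 lower probe sets, in place of 838 and 882, and 1 higher and 1 lower pathway gene (Adcy3 and Selenop), in place of 6 and 2. Only the use of unshrunken variances differs there. A common array median gave 4 lower pathway genes (Crtc3 and Secisbp2 added). Leaving out 1 array gave 625 to 760 higher and 575 to 776 lower probe sets, and 4 to 6 higher and 1 to 4 lower pathway genes. Without K313 replicate 2, 575 were lower. Without K313 replicate 2 or K313 replicate 3 the lower pathway genes numbered 1, and without WT replicate 3 they numbered 4. The causes were not tested. Of the 8 called pathway genes, Selenop and Adcy3 passed in all 14 alternatives and 6 missed in at least 1; Slco3a1, Gpx3 and Prkar2b missed with ordinary variance alone (limma adjusted p = 0.0584, 0.0918 and 0.0797). Same-numbered arrays did not deviate together (r = -0.06, 0.03 and -0.06). Such correlations cannot show whether same-numbered samples were handled together, and the labels state no pairing. With a replicate block 777 probe sets were higher and 769 lower, with 5 higher and 3 lower pathway genes, and the Dio2 difference was 6.36. Genes within the olfactory receptor range have no level that can be told from background.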
